A study of Mus musculus with 12 samples.

Results

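The 35 genes described here encode chaperones, folding enzymes, stress sensors, degradation factors and channel subunits of the endoplasmic reticulum (ER) of the mouse. They were chosen by gene symbol, and each symbol matched 1 row of a table of 23382 gene rows. All 35 passed the filter on low counts, which kept 15802 genes. By role they were 17 chaperones and folding enzymes, 6 stress sensors or transcription factors, 4 targets of the PERK-ATF4 branch, 6 factors of ER-associated degradation and 2 subunits of the translocation channel.

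RNA from hippocampus was sequenced after removal of ribosomal RNA, in 12 libraries that formed 4 groups of 3. The groups were control mice given vehicle, control mice given Δ9-THC (THC, the main psychoactive compound of cannabis), and mice labelled DISC1 mutant, named aDN-DISC1 in the series, given vehicle or THC. All were on a C57BL/6 background. The control libraries carry no genotype entry and were placed by their titles, and the labels do not say whether controls share an allele with the mutants. The series title places THC exposure in adolescence and memory impairment in adulthood and calls the genetic vulnerability astrocyte-specific. The sources used here do not give the promoter that drives the mutant protein, the dose, the age at collection or the sex of the mice. The series asks how the exposure and the mutation act separately and together.

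Secreted and membrane proteins enter the ER through the translocation channel and are folded there by chaperones, among which Hspa5 (BiP) and Hsp90b1 are the most general, and by protein disulfide isomerases. When unfolded protein accumulates, the sensors Ern1 (IRE1), Eif2ak3 (PERK) and Atf6 start the unfolded protein response: IRE1 splices Xbp1 RNA, PERK slows translation and raises translation of Atf4, and cleaved ATF6 enters the nucleus. Xbp1 and ATF6 raise chaperone and degradation genes, while Atf4 raises Ddit3 (CHOP), Chac1, Trib3 and Asns. Cells that secrete much protein keep this machinery high. The gene-level counts used here hold no measure of Xbp1 splicing, of phosphorylation or of ATF6 cleavage.

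The response is known to act through short promoter sequences, and the matches are shown here because the chaperone genes and the PERK-ATF4 targets with a match hold different motifs. RefSeq promoter windows of GRCm38.p6, from 250 bases before to 50 bases after the start, were found for 30 of the 35 genes. Both strands were searched for 4 motifs. The ER stress response element, CCAAT and CCACG with 9 free bases between them, is read by ATF6 and Xbp1 with NF-Y. It stood in 8 of the 30 windows (26.7%), against 37 of 27025 genes with a window (0.137%). Hsp90b1 held 2 such matches. The matches are written in the motif's own direction, and capitals mark the fixed letters of the motif:
Hspa5, chr2:34772025-34772043: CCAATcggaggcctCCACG
Hsp90b1, first match, chr10:86705533-86705551: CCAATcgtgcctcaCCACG
Hsp90b1, other match, chr10:86705638-86705656: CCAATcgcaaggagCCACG
Calr, chr8:84847075-84847093: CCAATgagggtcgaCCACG
Canx, chr11:50325800-50325818: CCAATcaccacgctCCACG
Pdia6, chr12:17266491-17266509: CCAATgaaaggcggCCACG
Dnajc3, chr14:118937827-118937845: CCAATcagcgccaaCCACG
Creld2, chr15:88819520-88819538: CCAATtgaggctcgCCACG
Syvn1, chr19:6046532-6046550: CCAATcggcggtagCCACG
The Hspa5 match lies 65 to 47 bases before the start on the plus strand, as the 250 bases before that start show (chr2:34771840-34772089, plus strand):
Hspa5 upstream: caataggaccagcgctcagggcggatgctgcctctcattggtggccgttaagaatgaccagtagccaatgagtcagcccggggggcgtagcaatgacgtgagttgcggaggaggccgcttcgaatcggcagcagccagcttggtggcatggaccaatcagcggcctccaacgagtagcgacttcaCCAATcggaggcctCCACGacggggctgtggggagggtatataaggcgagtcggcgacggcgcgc
The matches lay on the strand of the gene for Hspa5, Canx, Pdia6, Dnajc3, Syvn1 and 1 of those of Hsp90b1, and on the opposite strand for Calr, Creld2 and the other of Hsp90b1.

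A shorter form of the element, ATTGG and CCACG with 1 free base between them, stood in 2 of the 30 windows (6.67%, against 0.0444% of all genes). The C/EBP-ATF element bound by Atf4 with a C/EBP partner, searched as TGATGNAA, stood in 4 of the 30 (13.3%, against 4.51% of all genes), and 3 of those 4 were targets of the PERK-ATF4 branch. The element TGACGTGG, bound by Xbp1, stood in none of the 30 windows and in 0.714% of all genes. Herpud1 was the 1 member with matches to 2 of the motifs, and they did not overlap:
Herpud1, short stress element, chr8:94386377-94386387: ATTGGgCCACG
Dnajb11, short stress element, chr16:22857852-22857862: ATTGGcCCACG
Herpud1, C/EBP-ATF element, chr8:94386317-94386324: TGATGcAA
Chac1, C/EBP-ATF element, chr2:119351049-119351056: TGATGcAA
Asns, C/EBP-ATF element, chr6:7693225-7693232: TGATGaAA
Trib3, C/EBP-ATF element, chr2:152344039-152344046: TGATGtAA
A match describes the letters in the window only. Of the genes described most below without such a match, Pdia3 lies at chr2:121413902-121438687, Pdia4 at chr6:47796141-47813512 and Sdf2l1 at chr16:17130138-17132383 (GRCm38).

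Levels per transcript length differed widely between the genes. On the scale of CPM (counts in a library scaled to 1e+06) per kb of transcript, the median over 12 libraries was highest for the lectin chaperones Calr (162) and Canx (141), followed by Hsp90b1 (140.4), the prolyl isomerase Ppib (119.7) and Hspa5 (116). The ranges of these 5 genes over libraries overlapped from each to the next, and all 12 values of Hspa5 lay above those of Atf4, the gene after it. Atf4 (75.4) and Asns (60.2), asparagine synthetase, came next, above Pdia6 (54.9), Pdia3 (54.9) and P4hb (53.3), which are disulfide isomerases. Among the sensors, Atf6 was at 20.6, Eif2ak3 at 8.13 and Ern1 at 1.12 CPM per kb. The lowest members were the pseudokinase gene Trib3 (0.181) and the isomerase Pdia5 (0.851). Most members varied little between libraries of a group: the SD within groups on the log2 scale had a median of 0.098 over the members, from 0.040 (Ppp1r15a) to 0.464 (Trib3), against 0.142 over all genes tested. The genes of that comparison were not matched for level.

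**Figure D1:**
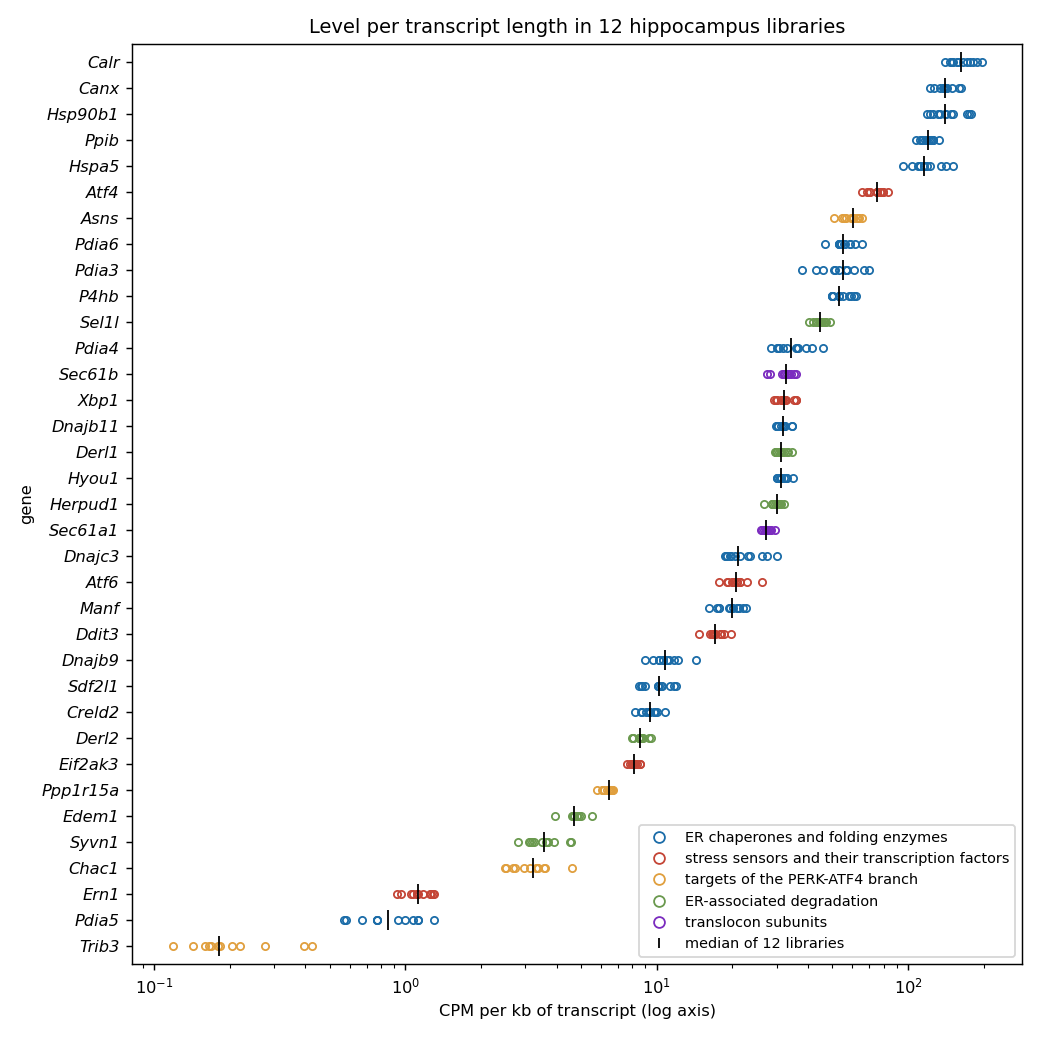
Level of each gene in CPM per kb of transcript (log axis), with 1 point for each of the 12 libraries, the median as a bar and the gene's role as colour. Calr, Canx, Hsp90b1, Ppib and Hspa5 stand highest, with medians from 116 to 162, and Trib3 lowest at 0.181.

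The libraries held between 33165903 and 41389957 expected counts. All 14 markers of hippocampal neurons were measured, none at 0, and their summed level was 3773 to 5853 CPM. Choroid plexus epithelium, a secretory tissue that borders the hippocampus, left a different level of its markers in different libraries. The sum over its 16 markers (16 measured, none at 0) was 329 to 411 CPM in control vehicle, 333 to 8952 in control THC, 6162 to 17018 in mutant vehicle and 337 to 10564 in mutant THC libraries. Control THC 2 was the 1 high library among the controls and mutant THC 2 the 1 low library among the mutants. Mutant THC 3 also held 4135 CPM of 12 striatal neuron markers and mutant vehicle 3 held 498 CPM, against 115 to 158 in the remaining libraries. Summed levels of plasma and B cell markers, for cells known for high ER chaperone levels, were 0.414 to 1.09 CPM over 6 of 7 markers measured. The numbers in the library labels run from 6 to 11 for vehicle and from 1 to 5 and 12 for THC. Library order and treatment thus largely go together and cannot be well separated, with only mutant THC 2, at 12, outside this order. Within vehicle, the mutant libraries were numbered 8, 9 and 10, and the controls 6, 7 and 11. The part of library order was not tested. Beyond the stated number per group and a number of its own in each title, nothing says that libraries came from separate mice. The p-values therefore rest on a spread between libraries that may in part be technical.

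Under vehicle, chaperones and folding enzymes stood higher in mutant than in control libraries, by up to 1.37 fold, and no member passed the threshold. Of the 17 folding genes 16 were higher in the mutant group, with a median log2 fold change of 0.20, against -0.01 over all genes. In every comparison these genes were measured in the same libraries, so their directions are not separate results. In the edgeR quasi-likelihood test with Benjamini-Hochberg adjustment, 0 of 35 members passed an adjusted p of 0.05, where 0.00633% of all genes did. At an unadjusted p of 0.05, 9 members were higher, where 11.2% of all genes were, and 1 was lower, where 6.63% were. Of those 9, 7 were folding genes, and the others were Derl1 and Sec61b. Without mutant vehicle 3, the library of these groups with the highest choroid plexus and striatal marker sums, the median of the folding genes was 0.12. Marker sums of other cell types also differed between these groups without overlap, beside that of choroid plexus: oligodendrocyte markers summed to 5124 to 6479 CPM in control and 7097 to 8094 CPM in mutant vehicle, meningeal and mural markers to 594 to 744 and 865 to 1633, and striatal markers to 121 to 127 and 136 to 498. Hippocampal neurons were lower, at 5010 to 5453 CPM in control and 4220 to 4993 in mutant vehicle, as were astrocytes, at 6591 to 6794 and 6095 to 6562. All markers of these lists were measured and none was at 0, and their part in the result was not tested. DESeq2 called 4 members in this comparison (Pdia3, Pdia4, Dnajc3 and Sdf2l1) among 781 genes, limma-voom 0 among 0, and edgeR fitted on these 2 groups alone 1 (Dnajc3) among 523. In bulk tissue, fewer cells of a type and less RNA per cell cannot be told apart.

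Pdia3, the disulfide isomerase that works with calreticulin and calnexin, had the largest difference of the folding genes. Its level was 119, 105 and 127 CPM in the control vehicle libraries and 156, 140.1 and 184 CPM in the mutant vehicle libraries. Every mutant vehicle library was above every control vehicle library. The log2 fold change was 0.45 ± 0.11 (SE; adjusted p = 0.16 in edgeR), or 1.37 fold.

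Dnajc3, a co-chaperone of Hspa5, stood at 102, 97.4 and 100.4 CPM in control vehicle and 120.5, 135 and 154 CPM in mutant vehicle libraries, a log2 fold change of 0.45 ± 0.13 (adjusted p = 0.16 in edgeR). Pdia4, another disulfide isomerase, stood at 72.7, 68.3 and 76.4 CPM and 86.7, 87.5 and 110.4 CPM, a log2 fold change of 0.39 ± 0.11 (adjusted p = 0.16 in edgeR). Neither gene's groups overlapped, and mutant vehicle 3 was the highest library for both. Sdf2l1, a partner of the Hspa5 co-chaperone Dnajb11, was close to constant in control vehicle at 9.43, 9.56 and 9.64 CPM and stood at 12.5, 11.2 and 13.2 CPM in mutant vehicle libraries. Its groups did not overlap either, and its log2 fold change was 0.37 ± 0.09 (adjusted p = 0.16 in edgeR). For this and the other comparisons, the share of all genes whose groups did not overlap was not computed.

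The general chaperones had smaller estimates than these 4 genes, which were picked by their own results, and genes were not tested against each other. Hspa5 was at 270.1, 249.6 and 292 CPM in control vehicle and 304, 290.2 and 368 CPM in mutant vehicle libraries, and the highest control exceeded the lowest mutant library. Its log2 fold change was 0.24 ± 0.11 (adjusted p = 0.27 in edgeR). Hsp90b1 was at 353, 345 and 373 CPM and 399, 427 and 483 CPM, with no overlap and a log2 fold change of 0.29 ± 0.11 (adjusted p = 0.21 in edgeR). P4hb, the archetypal disulfide isomerase, was at 146 ± 4.94 CPM (SD, n = 3) in control vehicle and 167 ± 8.06 CPM in mutant vehicle. The nucleotide exchange factor of Hspa5, Hyou1, was the 1 folding gene that was not higher, at 139 ± 5.17 against 138 ± 4.47 CPM.

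**Figure D2:**
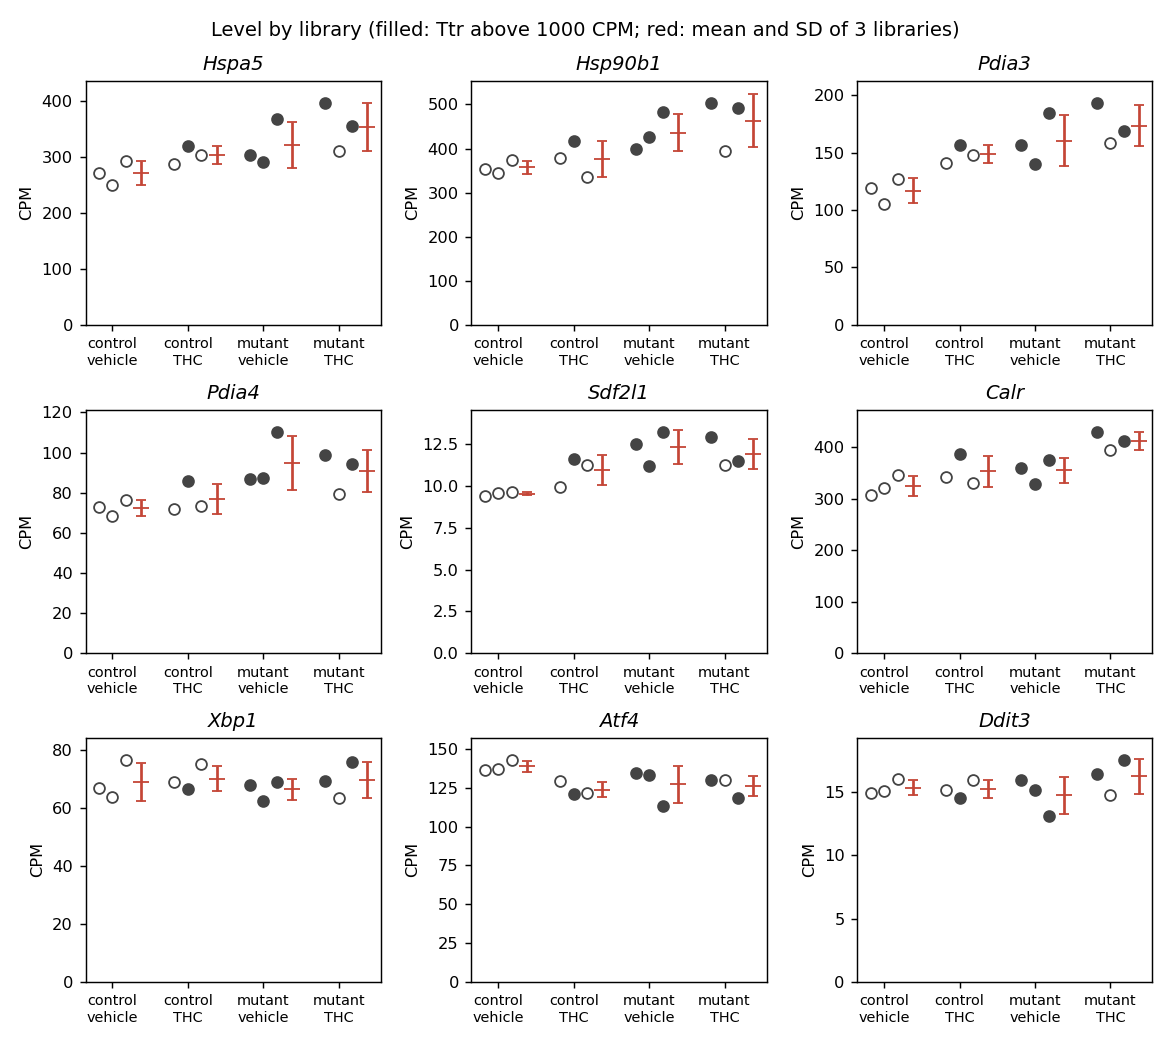
Level in CPM (axis from 0) of 9 genes in each library, grouped by genotype and treatment, with the mean and SD of 3 libraries in red and filled points for libraries with Ttr above 1000 CPM. Pdia3, Pdia4 and Sdf2l1 have their lowest means in control vehicle, while the means of Xbp1 and Ddit3 differ little between the 4 groups.

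The sensors and their transcription factors lay on both sides of 0 under vehicle. Their median log2 fold change was -0.03 over 6 genes, with 0 at an unadjusted p of 0.05. Xbp1 was at 66.9, 63.9 and 76.6 CPM in control vehicle and 67.9, 62.3 and 69.1 CPM in mutant vehicle libraries, and its groups overlapped (-0.06 ± 0.09 on the log2 scale, adjusted p = 0.75 in edgeR). Atf4 was at 137, 137 and 143 CPM and 135, 134 and 113 CPM, so that all 3 mutant libraries lay below the controls, mutant vehicle 3 furthest (-0.13 ± 0.07, adjusted p = 0.37 in edgeR). Ddit3, the pro-apoptotic factor CHOP, was at 14.9, 15.1 and 16.0 CPM and 15.9, 15.1 and 13.1 CPM (-0.06 ± 0.09, adjusted p = 0.76 in edgeR). The sensor genes themselves differed by 0.02 (Ern1), -0.01 (Eif2ak3) and 0.02 (Atf6) on the log2 scale.

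Targets of the PERK-ATF4 branch did not share a direction. Asns was lower at an unadjusted p of 0.05, with 127, 127 and 131 CPM in control vehicle and 121, 121 and 101 CPM in mutant vehicle libraries (-0.17 ± 0.08, adjusted p = 0.28 in edgeR). Chac1, an enzyme that degrades glutathione, was at 6.29 ± 1.05 against 4.90 ± 0.701 CPM, and Ppp1r15a, the phosphatase subunit that restores translation, at 15.2 ± 0.428 against 15.3 ± 0.161 CPM. Trib3 was below 1 CPM in every library, at 0.32 to 0.41 CPM in control vehicle and 0.45 to 0.86 CPM in mutant vehicle, without overlap. Its log2 fold change of 0.78 ± 0.41 was the largest of the members, and its SE was the widest.

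Degradation genes had log2 fold changes from -0.20 (Syvn1) to 0.15 (Edem1) under vehicle. Derl1, a channel protein of ER-associated degradation, was at 94.1, 94.4 and 95.3 CPM in control vehicle and 105, 99.4 and 106 CPM in mutant vehicle libraries, without overlap (0.13 ± 0.06, adjusted p = 0.26 in edgeR). Herpud1, which assembles the degradation complex, was at 58.8, 57.8 and 59.7 CPM and 59.4, 60.5 and 61.2 CPM (0.04 ± 0.05, adjusted p = 0.74 in edgeR). Sec61b, the small channel subunit, stood at 17.8, 15.5 and 15.8 CPM in control vehicle and 19.2, 18.0 and 19.0 CPM in mutant vehicle libraries (0.19 ± 0.07, adjusted p = 0.21 in edgeR). The main channel subunit Sec61a1 was at 88.4 ± 4.67 against 87.3 ± 1.76 CPM.

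Lists of other genes of these pathways, none of them members, also held 0 genes past the threshold under vehicle in edgeR. Over all genes, 11.2% were higher and 6.63% lower at an unadjusted p of 0.05. Among other folding and redox genes, 6 of 32 genes were higher and 1 lower at an unadjusted p of 0.05, led by the Hspa5 nucleotide exchange factor Sil1 (0.40 ± 0.10, adjusted p = 0.16). Among other translocation and glycosylation genes, 8 of 31 genes were higher and 0 lower, led by Sec63 (0.25 ± 0.06, adjusted p = 0.16). Among other degradation genes, 4 of 26 genes were higher and 0 lower, led by the lectin gene Erlec1 (0.34 ± 0.11, adjusted p = 0.17). Among other sensors and processing enzymes, 3 of 19 genes were higher and 0 lower, led by Eif2ak2 (0.49 ± 0.12, adjusted p = 0.16), the RNA-activated kinase PKR. Among other integrated stress response genes, 2 of 26 genes were higher and 3 lower, led by Ddit4 (0.39 ± 0.08, adjusted p = 0.16).

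Under THC, the folding genes again stood higher in mutant libraries, and no member passed. All 17 folding genes were above 0, with a median log2 fold change of 0.13, against 0.01 over all genes. The edgeR test called 0 of 35 members (0.00633% of all genes). Without adjustment, 6 members were higher and 0 lower at a p of 0.05, against 4.71% and 4.27% of all genes, and all 6 were folding genes. That count was 2 without control THC 1, control THC 3 or mutant THC 3, and 10 without mutant THC 2 or mutant vehicle 3. The folding median was 0.20 without control THC 2 and 0.21 without mutant THC 2. DESeq2 and limma-voom called 0 members. Microglia markers did not overlap between these groups, at 522 to 569 CPM in control and 583 to 633 CPM in mutant THC, and their part was not tested. The groups under THC share no library with those under vehicle.

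Calr, the soluble lectin chaperone, had the smallest p under THC, with 342, 387 and 329.6 CPM in control THC and 429.8, 394 and 412 CPM in mutant THC libraries. The groups did not overlap, since mutant THC 2 stood just above control THC 2. Its log2 fold change was 0.22 ± 0.08 (adjusted p = 0.55 in edgeR). P4hb was at 143, 152 and 143 CPM and 167, 153 and 178 CPM (0.18 ± 0.06, adjusted p = 0.55 in edgeR), and here too the lowest mutant library was next to the highest control. Dnajb11 was at 61.1, 64.5 and 61.5 CPM and 69.6, 65.7 and 69.8 CPM (0.13 ± 0.05, adjusted p = 0.55 in edgeR). The difference was at most 1.17 fold in these 3 genes.

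Hspa5 was at 286, 319.8 and 303 CPM in control THC and 395, 309 and 355 CPM in mutant THC libraries, with overlap through mutant THC 2 (0.22 ± 0.11, adjusted p = 0.55 in edgeR). Hsp90b1 was at 378, 417 and 335 CPM and 503, 395 and 493 CPM, with the same library overlapping the controls (0.30 ± 0.11, adjusted p = 0.55 in edgeR). Mutant THC 2 is the mutant library with low choroid plexus markers. Xbp1 differed by -0.01 ± 0.09, Atf4 by 0.03 ± 0.07, Ddit3 by 0.09 ± 0.09 and Herpud1 by -0.11 ± 0.05 on the log2 scale, with adjusted p of 0.97, 0.91, 0.72 and 0.55 in edgeR. The 6 degradation genes had a median of -0.06 and the 2 channel subunits one of -0.03.

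The other pathway lists held 0 genes past the threshold under THC. Over all genes, 4.71% were higher and 4.27% lower at an unadjusted p of 0.05. Of other folding genes, 2 of 32 genes were higher and 0 lower at an unadjusted p of 0.05, led by Txndc12 (0.21 ± 0.06, adjusted p = 0.55), and 4 of 26 genes were higher and 4 lower among other integrated stress response genes, led by the transcription factor Cebpb (-0.84 ± 0.19, adjusted p = 0.55). In the lists of other degradation, sensor and translocation genes, 1, 0 and 0 genes were lower, and 0, 0 and 2 higher.

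Averaged over both treatments, with 6 mutant against 6 control libraries, all 17 folding genes were higher in mutants. Their median log2 fold change was 0.19, against 0.00 over all genes. The edgeR test called 0 of 35 members, where 0.00633% of all genes passed. At an unadjusted p of 0.05, 13 members were higher and 0 lower, against 12.2% and 9.01% of all genes, and 12 of the 13 were folding genes. The other was Trib3, which is below 1 CPM in every library and had the largest log2 fold change of the members, 0.66. The 3 with the smallest p were Pdia3 (0.34 ± 0.08), P4hb (0.19 ± 0.05) and Pdia4 (0.31 ± 0.08), each with an adjusted p of 0.16 in edgeR. DESeq2 called 5 members (Hsp90b1, Pdia3, Pdia4, P4hb and Sdf2l1) among 785 genes and limma-voom 0 among 1. Without mutant THC 2, edgeR also called 5 (Hsp90b1, Pdia3, Pdia4, P4hb and Dnajc3), among 942 genes.

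In the averaged comparison, Xbp1 (-0.03 ± 0.06), Atf4 (-0.05 ± 0.05), Ddit3 (0.02 ± 0.06) and Herpud1 (-0.04 ± 0.04) lay near 0 on the log2 scale. Hspa5 was at 0.23 ± 0.08 and Hsp90b1 at 0.29 ± 0.08. The adjusted p in edgeR was 0.16 for Hspa5 and 0.16 for Hsp90b1. Medians were -0.02 over the 6 sensors and factors, -0.07 over the 4 PERK-ATF4 targets, -0.03 over the 6 degradation genes and 0.03 over the 2 channel subunits. Whether the folding genes differed from these groups was not tested.

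**Figure D3:**
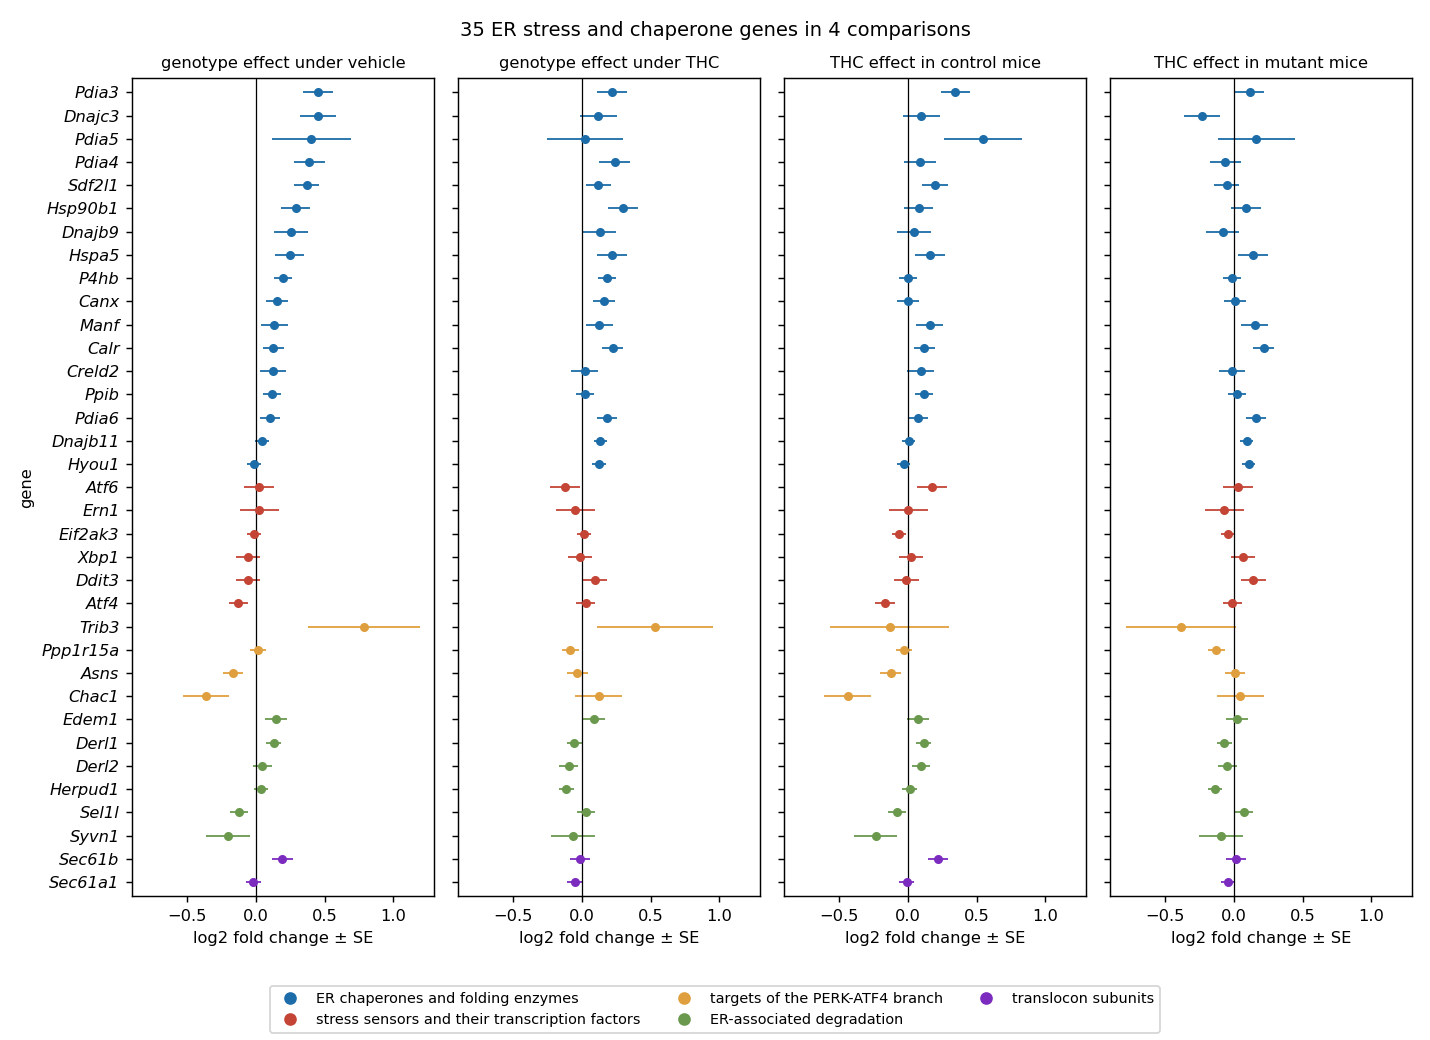
Log2 fold change ± SE of the 35 genes in the comparisons of genotype under each treatment and of THC in each genotype, coloured by role. Folding genes lie mostly to the right of 0 in the genotype comparisons, with medians of 0.20 under vehicle and 0.13 under THC, and no gene passed an adjusted p of 0.05.

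Genes with a stress element were described in the same comparison. The 8 members with the CCAAT and CCACG element had a median log2 fold change of 0.17 for genotype averaged over treatments, 7 of them above 0, and the other members with a window had 0.04. Syvn1, the ubiquitin ligase of ER-associated degradation, holds the element and was at -0.13. The other 7 holders are all folding genes, while the members without it include sensors and PERK-ATF4 targets, so these 2 medians also differ by role. Among folding genes with a window, values ran from 0.07 (Creld2) to 0.29 (Hsp90b1) with the element. Without it they ran from 0.07 (Ppib) to 0.34 (Pdia3). Outside the members, 13 tested genes held the element, with a median of 0.21 and 9 above 0, against 0.00 for genes without it. Their median was 0.06 under vehicle (8 above 0) and -0.01 under THC (6 above 0), so the averaged value is not matched within either treatment. The 2 members with the short element, Dnajb11 and Herpud1, had a median of 0.03, against 0.11 for members without it. The 4 members with the C/EBP-ATF element had a median of -0.07, against 0.11 for members without it. Those holders are mostly PERK-ATF4 targets, so these 2 medians also differ by role. Over the 346 tested genes with the C/EBP-ATF element that are no members, the median was 0.01. These medians were not tested against each other.

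Choroid plexus marker level moved with the folding genes in most libraries, though not in all. The highest value of each of the 17 folding genes fell in mutant THC 1 (7 genes), mutant vehicle 3 (5) or mutant THC 3 (5), which are libraries with high markers. Over all genes, 7.13%, 15.8% and 15.9% had their highest value in these libraries. The same libraries had the lowest sums of hippocampal neuron markers, at 4609, 4220 and 3773 CPM. Mutant vehicle 3 and mutant THC 3 also had the highest striatal sums, at 498 and 4135 CPM, and the part of these was not tested. The folding genes were lowest in control vehicle 2 (7 genes), control vehicle 1 (3) and control THC 3 (3), which have low choroid plexus markers. In 4 other libraries 1 gene each was lowest, among them mutant vehicle 2 and mutant vehicle 3, which have high markers. The share of all genes lowest in each library was not computed, so these counts have no background. As a mean over the 17 genes, centred on 12 libraries, control THC 2 (high markers) stood at 0.02 on the log2 scale, against -0.06 and -0.05 in the other control THC libraries. Mutant THC 2 (low markers) stood at -0.01, against 0.20 and 0.16 in the other mutant THC libraries. Each of these contrasts rests on 1 library with a different marker level, and their cause was not tested. In the mutant vehicle group, mutant vehicle 2 had a marker score of 6.39, above the 5.16 of mutant vehicle 1. Its folding mean was -0.03 against 0.05, and so below that of mutant THC 2 as well. Mutant vehicle 3 had the highest score, 6.83, and stood at 0.19.

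**Figure D4:**
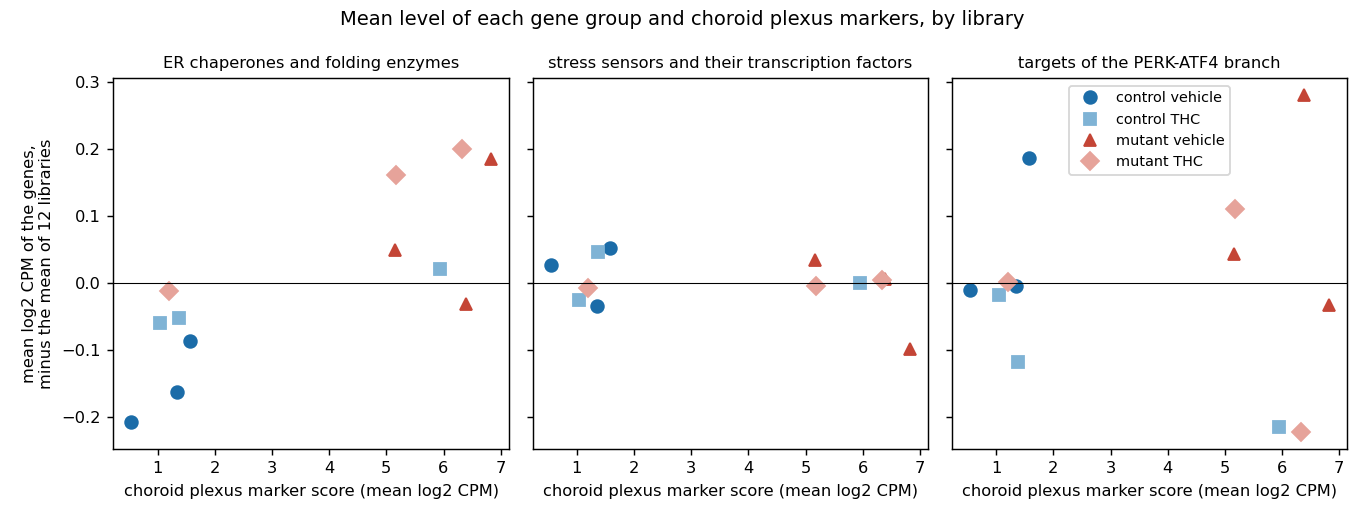
Mean log2 CPM of the folding genes, of the sensors and factors and of the PERK-ATF4 targets, 1 panel each, minus their mean over 12 libraries, against the choroid plexus marker score (mean log2 CPM of 16 markers), with 1 point per library and the 4 groups by colour and shape. Folding genes are highest in mutant THC 1, at 0.20, and lowest in control vehicle 2, at -0.21, while the sensors stay between -0.10 and 0.05.

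Adding the marker score to the edgeR model as a term gave each gene's log2 difference per unit of the score within groups. That term passed an adjusted p of 0.05 in 0 of 35 members, where 2.63% of all genes did. The unadjusted p was below 0.05 with a positive term in 5 members (9.11% of all genes) and with a negative one in 1 (4.78%). The 5 were the folding genes Hsp90b1 (0.06 ± 0.01, adjusted p = 0.056 in edgeR), Dnajc3 (0.08 ± 0.02, 0.064), Pdia4 (0.06 ± 0.02, 0.079), Hspa5 (0.05 ± 0.02, 0.24) and Calr (0.03 ± 0.01, 0.36), and the negative one was Atf6 (-0.05 ± 0.02, 0.30). The term was positive in 16 of 17 folding genes, with a median of 0.03, and in 1 of 6 degradation genes. Over all genes the median of the term was 0.00047.

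With the term in the model, the median genotype difference of the folding genes was smaller. It went from 0.20 to 0.05 under vehicle and from 0.19 to 0.06 in the averaged comparison, and 0 members were at an unadjusted p of 0.05 in either. The share of all genes at that p was smaller too, with 2.01% higher and 1.77% lower under vehicle and 1.12% higher and 1.84% lower in the averaged comparison. Under vehicle, Hspa5 went from 0.24 to -0.01 ± 0.13 and Hsp90b1 from 0.29 to -0.03 ± 0.10. Pdia3 went from 0.45 to 0.24 ± 0.14 and Sdf2l1 from 0.37 to 0.22 ± 0.13. In the averaged comparison, Hspa5 went from 0.23 to 0.06 ± 0.09 and Hsp90b1 from 0.29 to 0.09 ± 0.07. Under THC the folding median went from 0.13 to 0.12, with 4 members higher and 0 lower at an unadjusted p of 0.05, against 2.1% and 3.15% of all genes with the term. All 3 mutant vehicle libraries had high markers and all 3 control vehicle libraries low ones, so genotype under vehicle and marker level cannot be told apart, and within groups the score differed most in the THC groups, through control THC 2 and mutant THC 2.

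**Figure D5:**
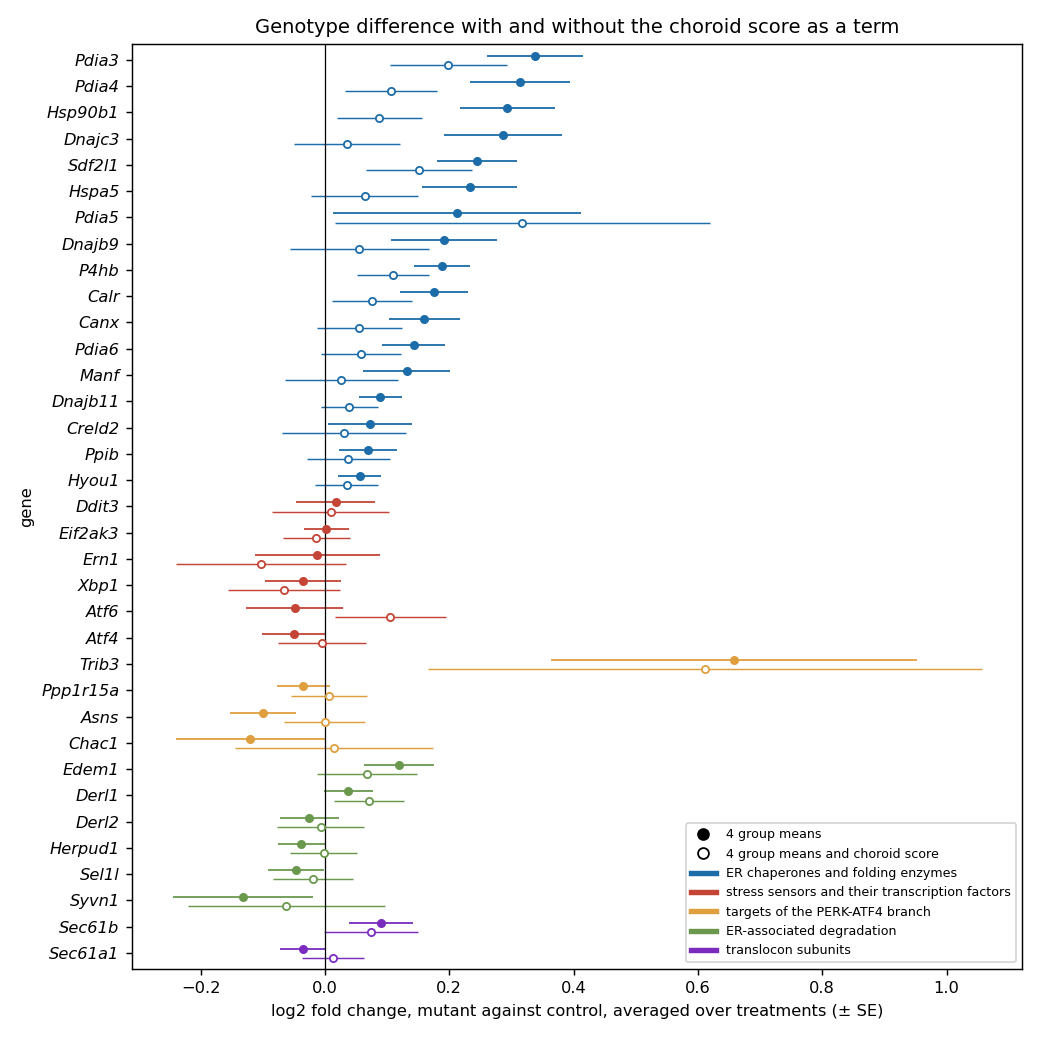
Log2 fold change ± SE of mutant against control, averaged over treatments, for each gene, from the model of 4 group means (filled) and the model with the choroid plexus score added (open), coloured by role. With the term, 16 of 17 folding genes lie nearer to 0, all but Pdia5, and their median goes from 0.19 to 0.06.

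In control mice, no member passed between THC and vehicle, and the smallest p belonged to a higher Pdia3. The edgeR test called 0 of 35 members, where 0% of all genes passed. At an unadjusted p of 0.05, 2 members were higher and 2 lower, against 3.55% and 3.45% of all genes. DESeq2 called 0 members among 12 genes and limma-voom 0 among 0. Of the folding genes, 16 of 17 were above 0 with a median of 0.09, and all 4 PERK-ATF4 targets were below 0 with a median of -0.13. The median over all genes was 0.00041. The comparisons of THC and of genotype share the control vehicle libraries, and those libraries had the lowest mean of the 4 groups for Pdia3, Calr, Hspa5 and Hsp90b1. With the choroid plexus score as a term, the folding median for THC in controls was 0.03, and without the term it was 0.05 without control THC 2 and also without control vehicle 2. Several marker sums differed between control vehicle and control THC without overlap: endothelium was at 264 to 281 and 304 to 312 CPM, meningeal and mural cells at 594 to 744 and 767 to 1243, astrocytes at 6591 to 6794 and 6031 to 6116, and neuronal immediate early genes at 429 to 469 and 346 to 389. Their part in the result was not tested.

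Pdia3 was at 119, 105 and 127 CPM in control vehicle and 141, 157 and 148 CPM in control THC libraries. The groups did not overlap, control THC 2 was the highest, and the log2 fold change was 0.35 ± 0.11 (adjusted p = 0.70 in edgeR). Sec61b was at 17.8, 15.5 and 15.8 CPM and 18.1, 19.0 and 20.2 CPM, again without overlap (0.22 ± 0.07, adjusted p = 0.70 in edgeR). Chac1 was the largest of the lower members, at 5.53, 5.86 and 7.50 CPM in control vehicle and 5.43, 4.40 and 4.09 CPM in control THC libraries. Its highest THC library lay just under its lowest vehicle library (-0.44 ± 0.17, adjusted p = 0.70 in edgeR). Atf4, which raises Chac1, was at 137, 137 and 143 CPM and 129, 121 and 122 CPM, without overlap (-0.17 ± 0.07, adjusted p = 0.70 in edgeR).

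Hspa5 was 0.16 ± 0.11 and Hsp90b1 0.08 ± 0.11 on the log2 scale for THC in controls, with adjusted p of 0.77 and 0.91 in edgeR. Xbp1 (0.02 ± 0.09), Ddit3 (-0.01 ± 0.09) and Herpud1 (0.01 ± 0.05) lay near 0. In the lists of other pathway genes 0 passed. Over all genes, 3.55% were higher and 3.45% lower at an unadjusted p of 0.05. Of integrated stress response genes, 3 of 26 genes were higher and 2 lower at an unadjusted p of 0.05, led by Ddit4 (0.56 ± 0.08, adjusted p = 0.55), 1 of 19 genes was higher and 0 lower among sensors, led by the transmembrane factor Creb3l1 (1.14 ± 0.35, adjusted p = 0.70), and 2 of 31 genes were higher and 0 lower among translocation genes, led by Sec63 (0.22 ± 0.06, adjusted p = 0.70). Among degradation genes, 1 of 26 genes was higher and 1 lower, led by the ubiquitin ligase Rnf5 (-0.45 ± 0.12, adjusted p = 0.70), and among folding genes 0 of 32 genes were higher and 0 lower.

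In mutant mice, no member passed between THC and vehicle, and the smallest p belonged to a higher Calr. The edgeR test called 0 of 35 members (0% of all genes), DESeq2 0 members among 3 genes and limma-voom 0 among 0. At an unadjusted p of 0.05, 3 members were higher (the folding genes Calr, Pdia6 and Hyou1) and 1 was lower, against 2.53% and 3.2% of all genes. The folding median was 0.09, with 11 of 17 above 0, against a median of -0.0078 over all genes. The folding median was 0.042 without mutant vehicle 1, 0.0097 without mutant vehicle 2, 0.028 without mutant THC 1 and 0.040 without mutant THC 3. Without mutant THC 1, 0 folding genes were higher at that p. With the choroid plexus score as a term, 5 members were higher and 2 lower (Herpud1 and Ppp1r15a), against 2.27% and 2.67% of all genes with the term, and the folding median was 0.12.

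Calr was at 360.2, 328 and 376 CPM in mutant vehicle and 429.8, 394 and 412 CPM in mutant THC libraries, without overlap (0.22 ± 0.08, adjusted p = 0.81 in edgeR). Pdia6 was at 118, 116 and 128 CPM and 143, 128 and 134 CPM, and its groups overlapped, since the lowest THC library lay just under the highest vehicle library (0.16 ± 0.07, adjusted p = 0.81 in edgeR). Herpud1 was the lower member, at 59.4, 60.5 and 61.2 CPM and 56.4, 55.9 and 52.2 CPM, and its 3 THC libraries lay below its 3 vehicle libraries (-0.14 ± 0.05, adjusted p = 0.81 in edgeR). Mutant THC 3, the library with the highest striatal markers, was its lowest. The remaining genes named in every comparison differed by 0.14 ± 0.11 (Hspa5), 0.09 ± 0.11 (Hsp90b1), 0.07 ± 0.09 (Xbp1), -0.01 ± 0.07 (Atf4) and 0.14 ± 0.09 (Ddit3) on the log2 scale. Other pathway genes at an unadjusted p of 0.05 were 1 higher and 1 lower of 26 degradation genes, 1 lower of 32 folding genes, 1 lower of 19 sensors and none of the integrated stress response and translocation genes. Over all genes, 2.53% were higher and 3.2% lower at that p.

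Whether THC acted differently in the mutant was tested by the interaction, in which 0 of 35 members passed (edgeR, 0% of all genes, and 0 members in DESeq2 and limma-voom). Without adjustment, 0 members were positive and 1 was negative at a p of 0.05, against 2.16% and 4.42% of all genes. That gene was Derl1, with 97.5, 100.0 and 110.0 CPM in control THC and 99.3, 102 and 94.7 CPM in mutant THC libraries beside the vehicle values above, and an interaction of -0.18 ± 0.08 (adjusted p = 0.74 in edgeR). Next came Chac1 at 0.49 ± 0.24 and Hyou1 at 0.14 ± 0.07, each with an adjusted p of 0.76 in edgeR. The interaction was -0.02 ± 0.15 for Hspa5, 0.01 ± 0.15 for Hsp90b1, 0.05 ± 0.12 for Xbp1, 0.15 ± 0.10 for Atf4, 0.15 ± 0.13 for Ddit3 and -0.15 ± 0.08 for Herpud1.

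Averaged over genotypes, THC libraries had 5 members higher and 0 lower at an unadjusted p of 0.05, against 2.96% and 3.09% of all genes, and 0 of 35 passed (edgeR, 0% of all genes, and 0 members in DESeq2 and limma-voom). The 3 smallest p belonged to Calr (0.17 ± 0.05), Pdia3 (0.23 ± 0.08) and Pdia6 (0.12 ± 0.05), with adjusted p of 0.79 to 0.80 in edgeR. Manf, a secreted protein released under ER stress, and Sec61b were the others. Differences of the genes named throughout were 0.15 ± 0.08 for Hspa5, 0.08 ± 0.08 for Hsp90b1, 0.05 ± 0.06 for Xbp1, -0.09 ± 0.05 for Atf4, 0.06 ± 0.06 for Ddit3 and -0.06 ± 0.04 for Herpud1.

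Set against control vehicle, the mutant THC group had higher folding genes. Each of the 17 folding genes was higher, at a median log2 fold change of 0.26, against 0.01 over all genes. Of the members, 0 of 35 passed in edgeR (0.00633% of all genes). Without adjustment, 11 members were higher and 0 lower at a p of 0.05, against 7.13% and 7% of all genes, and 10 of the 11 were folding genes, Sec61b being the other. With the choroid plexus score as a term, 3 members were higher and 0 lower at that p, against 2.52% and 4.01% of all genes with the term, and the folding median was 0.12. Between these groups the marker sums of ependymal cells (16.9 to 41.97 and 43.7 to 67.0 CPM), striatal neurons (121 to 127 and 139.8 to 4135) and endothelium (264 to 281 and 295 to 327) did not overlap, and their part was not tested. DESeq2 called 2 members (Calr and Pdia3) among 158 genes and limma-voom 0 among 0. Pdia3 was at 117 ± 10.8 CPM in control vehicle and 173 ± 17.8 CPM in mutant THC (SD, n = 3), a log2 fold change of 0.57 ± 0.11 (adjusted p = 0.30 in edgeR), or 1.48 fold. Calr was at 325 ± 19.6 and 412 ± 17.7 CPM (0.34 ± 0.08, adjusted p = 0.30 in edgeR), and Pdia6 at 112 ± 9.68 and 135 ± 7.60 CPM (0.26 ± 0.07, adjusted p = 0.31 in edgeR). These 3 genes were picked by their p, and their libraries did not overlap between the groups. Hspa5 differed by 0.38 ± 0.11 and Hsp90b1 by 0.38 ± 0.11, against 0.01 ± 0.09 for Xbp1, -0.14 ± 0.07 for Atf4, 0.08 ± 0.09 for Ddit3 and -0.10 ± 0.05 for Herpud1.

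Among the group means of the other folding genes, Canx ran from 571 CPM in control vehicle to 641 in mutant THC, Ppib from 99.6 to 109.8 and Manf from 39.9 to 48.6. Pdia5, the lowest folding gene, ran from 1.22 CPM in control vehicle to 1.81 in mutant THC by group mean, and had the largest positive difference of the members for THC in controls (0.55 ± 0.28 on the log2 scale, adjusted p = 0.74 in edgeR). Dnajb9, an Hspa5 co-chaperone, had 24.8 CPM in control vehicle and its highest mean, 29.6, in mutant vehicle, as did Creld2 with 12.1 and 13.2. The degradation genes Sel1l, the partner of Syvn1, Edem1, a lectin that selects glycoproteins, and Derl2 had means of 254 to 277, 25.8 to 29.0 and 30.7 to 32.9 CPM. Syvn1 was at 12.3, 15.1 and 12.9 CPM in control vehicle, its highest group by mean, and at 10.3, 12.1 and 10.3 CPM in mutant THC libraries.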

How the data were processed

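Expected counts per gene were deposited by the authors in 1 table for 12 mouse hippocampus libraries, made with RSEM on RefSeq genes of build mm10, per the file headers. Versions in the submitters' processing notes are RSEM 1.2.21 and Bowtie2 2.2.2, beside edgeR 3.10.2, CASAVA 1.8.4 and FastQC. Of the values, 27.2% to 29.4% per library were not whole, since RSEM shares ambiguous reads, so genes with near-identical copies are less certain. The sources used here do not say whether counting used strand. RefSeq symbols were found for 23007 rows and GENCODE ones for 133; the 235 rows with no symbol held 0.727% of counts and stayed in the fit under their row names, as did 7 with several.

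Expected counts were rounded, filtered with filterByExpr, scaled by TMM (factors 0.989 to 1.01) and fitted in edgeR 4.0.16 (R 4.3.3) with robust quasi-likelihood and a mean for each of 4 groups (8 residual degrees of freedom). In all, 8 contrasts were tested over 15802 genes, with Benjamini-Hochberg adjustment and a threshold of 0.05. SE is the log2 fold change divided by the root of F. CPM uses TMM-scaled libraries, and transcript lengths for CPM per kb came from GENCODE M21. The choroid plexus score is the mean log2 CPM (prior count 2) of 16 markers. The lowest chi-square per gene over 66 library pairs was 11.0, so no library was counted as a repeat.

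Alternatives were RLE factors, DESeq2 1.42.0, limma-voom 3.58.1, no filter, only the groups compared, the choroid plexus score as a term and leaving out each library. The fit without both control THC 2 and mutant THC 3, the count of folding genes at an unadjusted p and the test of the score term were chosen after seeing the data. The members and lists were chosen with earlier results of these data known. Genes named were members past the threshold or, with none, the 3 with the smallest p in each comparison; Hspa5, Hsp90b1, Xbp1, Atf4, Ddit3 and Herpud1 throughout; and in other lists the gene with the smallest p. Other genes named with library values (Dnajc3, Asns and those set beside them) were chosen after their values were seen. Of 28 listed other degradation genes 26 were measured. The code was tested on simulated data.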

Additional observations from a re-analysis of the deposited data

How the results depend on the processing

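No paired analysis was possible because the replicate numbers are accession order and the labels give the groups no shared numbers. DESeq2 called 4 members for genotype under vehicle, 5 for genotype averaged over treatments and 2 for mutant THC against control vehicle, and edgeR on the 2 groups alone called 1 under vehicle, against 0 in the main analysis. Over all genes these tests called 781, 785, 158 and 523, against 1 in each of these 3 comparisons in the main analysis. Leaving out each library gave 0 to 5 members for genotype averaged over treatments. The median log2 fold change of the 35 members with the choroid plexus score as a term was -0.0098 (THC in controls), 0.047 (genotype under vehicle), 0.034 (interaction), 0.037 (genotype averaged) and 0.074 (mutant THC against control vehicle), and 0.091 in the last without both control THC 2 and mutant THC 3. Leaving out each library moved these medians over 0.011 to 0.10 for THC in controls, 0.072 to 0.14 for genotype under vehicle, -0.078 to 0.0094 for the interaction and 0.091 to 0.17 for mutant THC against control vehicle. Of 71 differences of named members, 16 changed sign under some alternative. With the score as a term these were Hsp90b1 for THC in controls (-0.028), Hspa5 (-0.012) and Hsp90b1 (-0.027) for genotype under vehicle, Hspa5 for the interaction (0.15) and Xbp1 for mutant THC against control vehicle (-0.019). Without both control THC 2 and mutant THC 3 they were, for THC in controls, Hsp90b1 (-0.000583) and Ddit3 (0.023), for THC in mutants Atf4 (0.032), for the interaction Hspa5 (0.011) and Xbp1 (-0.059), for genotype averaged Ddit3 (-0.028) and for mutant THC against control vehicle Xbp1 (-0.056). Atf4 for THC in mutants was 0.0029 with no filter and 0.0014 on the 2 groups alone. Over the fits that leave out a library, signs changed for THC in controls in Hsp90b1 (-0.000351 to 0.15), Xbp1 (-0.030 to 0.10), Ddit3 (-0.048 to 0.024) and Herpud1 (-0.032 to 0.052), and for THC in mutants in Atf4 (-0.086 to 0.034). They changed for genotype in Xbp1 (-0.11 to 0.023 under vehicle, -0.081 to 0.053 under THC, -0.068 to 0.0059 averaged) and Ddit3 (-0.12 to 0.017 under vehicle, -0.013 to 0.055 averaged). For the interaction they changed in Hspa5 (-0.11 to 0.088), Hsp90b1 (-0.066 to 0.11) and Xbp1 (-0.035 to 0.11), and for mutant THC against control vehicle in Xbp1 (-0.056 to 0.093). The cause of these changes was not tested. Depth limits Trib3 and Pdia5 most, whose levels were the lowest of the members per kb.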
